A study of Mus musculus with 9 samples.

Results

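The genes examined here encode the subunits of the enzyme complexes of oxidative phosphorylation. They were chosen by symbol alone, as the protein-coding genes on chromosomes 1 to 19 whose names begin Nduf followed by a, b, c, s or v and a digit (complex I), Uqcr (complex III), Cox4 to Cox8 (complex IV) or Atp5 (complex V, the ATP synthase). This gave 80 of 20665 protein-coding genes. Of 117465 merged peak regions, 129 lay within these genes or 1 kb of their ends. Open chromatin was profiled with ATAC-seq, where a transposase (Tn5) inserts sequencing adapters into accessible DNA. Multipotent progenitors (MPPs) and long-term haematopoietic stem cells (LT-HSCs) were sorted by flow cytometry from the bone marrow of C57BL/6 mice, after lineage-negative cells of pooled animals had been enriched. The 5 LT-HSC libraries were 3 of genotype RXRa/RXRb-KO (KO 1, 2 and 4) and 2 wild-type (WT 2 and 3). The 4 MPP libraries were 2 RXRa/RXRb-KO (KO 1 and 2) and 2 wild-type (WT 1 and 2). The labels give neither the deleted segments, nor any Cre line, nor an age, and no treatment is recorded. They do not say that libraries of a group came from separate pools, so the p-values below reflect library-to-library spread alone, and that spread may be technical.

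Oxidative phosphorylation is the step of respiration in which the inner mitochondrial membrane turns electron transfer into ATP. Complex I takes electrons from NADH and passes them to ubiquinone, complex III passes them to cytochrome c, complex IV passes them to oxygen, and complex V uses the resulting proton gradient to make ATP. Most subunits are encoded in the nucleus and have housekeeping promoters, in which sites for the factors NRF1, GABPA (an ETS-family protein), YY1 and Sp1 are known. LT-HSCs are known for resting largely on glycolysis, with oxidative phosphorylation rising as cells leave quiescence and become progenitors. Retinoid X receptors (RXRs) are nuclear receptors that bind DNA as partners of other receptors, among them PPARs, which regulate many genes of mitochondrial fat oxidation.

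Promoter sequences were searched for the letters of known sites. RefSeq start sites of GRCm38.p6 were listed for 64 of the 80 genes, each with a window of 250 bases before and 50 after the start site. The letters GCGCATGCG, the central part of the NRF1 site, were found on either strand in 8 of the 64 (12.5%), against 2.66% of 16457 genes with such a window and 4.64% of the 6731 genes whose start site region was open in every library. Those 8 sites are shown because NRF1 is the factor named for this pathway. Each is read 5′ to 3′ on the strand of its gene, with the match in capitals. Where the palindrome is complete, the matches of both strands overlap and are capitalised together.
Atp5g2, chr15:102671072-102671097, minus strand: ctccggccGCGCATGCGCagagcctt
Atp5k, chr5:108434432-108434457, minus strand: tcactgcgGCGCATGCGCctttctgg
Atp5l, chr9:44920967-44920991, minus strand: accaataaCGCATGCGCatttcccc
Cox6a1, chr5:115349103-115349128, minus strand: ggaacgggGCGCATGCGCgctctcgc
Ndufa11, chr17:56717694-56717719, plus strand: tgcactgcGCGCATGCGCgcacgcct
Ndufa8, chr2:36049331-36049355, minus strand: gctggagaCGCATGCGCagatggta
Uqcr11, chr10:80406810-80406834, minus strand: cgccttcaCGCATGCGCtatacgtc
Uqcrc1, chr9:108936670-108936695, plus strand: tccgctctGCGCATGCGCagcgcggc
The region that holds the match was open in all 9 libraries for 5 of these genes (Atp5g2, Atp5k, Cox6a1, Ndufa8 and Uqcrc1), in 8 for Atp5l, in 7 for Uqcr11 and in 6 for Ndufa11. The region of Ndufa11 held by all 9 libraries ended 296 bp before its start site and did not cover the match.

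The letters AAGATGGCG, which hold the YY1 core next to a translation start, were present in 7 of the 64 windows (10.9%), against 2.14% of all genes and 4.06% of genes with an always-open start site. In 6 of the 7 the first base of the match lay 22 to 35 bases after the start site, and in Atp5j it lay 88 bases before. The matches are printed with 5 bases on each side and the match in capitals.
Atp5j, chr16:84835051-84835069, minus strand: taggaAAGATGGCGgagtc
Atp5j2, chr5:145191505-145191523, minus strand: acttcAAGATGGCGtcact
Ndufa9, chr6:126849102-126849120, minus strand: gggagAAGATGGCGgccgc
Ndufc1, chr3:51408920-51408938, minus strand: ggaacAAGATGGCGccgtc
Ndufs4, chr13:114388046-114388064, minus strand: acaggAAGATGGCGgcggt
Ndufs6, chr13:73328436-73328454, minus strand: ccggcAAGATGGCGgcggt
Ndufs7, chr10:80249468-80249486, plus strand: aggccAAGATGGCGgcgct
The YY1 and NRF1 matches fell in different genes, with no gene in both lists.

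The other letters searched, all on both strands, were less particular to these genes. The ETS site CCGGAAG was in 15 windows (23.4%), against 13.3% of all genes and 23.5% of always-open ones. The Sp1 site GGGCGG was in 25 (39.1%), against 50.3% and 72.9%. CCAAT was in 26 (40.6%, against 42.3% and 47.5%), the E-box CACGTG in 6 (9.38%, against 9.01% and 12.3%), and the nuclear receptor letters AGGTCA in 14 (21.9%, against 16.7% and 13.7%). The 6-letter NRF1 core GCATGC, which lies inside the longer NRF1 letters, was in 12 (18.8%, against 9.34% and 12.0%). Median GC content of the windows was 57.3% over 69 windows of these genes, 57.0% over 20085 windows of all genes and 61.3% over 8548 windows of always-open genes. The windows are fixed around start sites and include those of genes without a peak there. A match is a description of letters, not a bound site.

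Full upstream windows are given for 4 genes on which the results turn. Ndufb7 and Atp5g2 had regions ranked higher in MPPs, Ndufb2 had a start site region ranked higher in LT-HSCs, and Ndufs8 had the highest rank of all. Each run is the 250 bases before the start site, 5′ to 3′ on the gene's strand. Every match to the letters above that lies wholly within the run is in capitals.
Ndufb7, chr8:83566508-83566757, plus strand: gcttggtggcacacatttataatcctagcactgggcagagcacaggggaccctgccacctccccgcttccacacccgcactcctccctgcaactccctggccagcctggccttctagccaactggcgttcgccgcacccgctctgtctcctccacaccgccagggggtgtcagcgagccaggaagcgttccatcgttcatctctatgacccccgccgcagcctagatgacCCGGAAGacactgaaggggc
Atp5g2, chr15:102671048-102671297, minus strand: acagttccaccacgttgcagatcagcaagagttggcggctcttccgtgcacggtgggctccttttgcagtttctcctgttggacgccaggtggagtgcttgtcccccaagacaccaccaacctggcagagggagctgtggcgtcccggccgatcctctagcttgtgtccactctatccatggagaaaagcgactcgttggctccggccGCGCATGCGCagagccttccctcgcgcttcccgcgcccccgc
Ndufb2, chr6:39592315-39592564, plus strand: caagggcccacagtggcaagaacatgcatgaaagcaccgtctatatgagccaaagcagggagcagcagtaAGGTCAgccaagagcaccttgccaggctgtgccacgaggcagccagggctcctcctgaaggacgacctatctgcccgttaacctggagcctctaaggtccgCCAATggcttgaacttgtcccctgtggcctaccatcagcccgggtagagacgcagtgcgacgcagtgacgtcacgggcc
Ndufs8, chr19:3912775-3913024, minus strand: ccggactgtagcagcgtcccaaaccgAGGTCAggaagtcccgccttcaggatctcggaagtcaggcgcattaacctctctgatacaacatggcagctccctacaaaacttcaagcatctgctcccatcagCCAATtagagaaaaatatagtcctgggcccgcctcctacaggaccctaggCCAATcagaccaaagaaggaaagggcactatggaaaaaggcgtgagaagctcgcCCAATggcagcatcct
Upstream of Ndufb7 only an ETS match was found. The NRF1 match was the only one wholly upstream of Atp5g2. An Sp1 match of Atp5g2 began at −4 and ran past the end of the printed run. Ndufb2 and Ndufs8 each had AGGTCA together with CCAAT, 1 time in Ndufb2 and 3 times in Ndufs8.

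The measurement was the presence of a peak in each library's own deposited list. The lists held 22690 to 71586 peaks in LT-HSCs, shortest in KO 1 (22690) and WT 3 (22878), and 78189 to 86353 in MPPs. Read depth is unknown. For regions with a peak in all 9 lists (13908 common regions), strength was compared by rank: each was placed among the 13908 by the −log10 q-value of its peak, as a percentile from 0 (weakest) to 100 (strongest) in that library. LT-HSC KO 1 and KO 2 stood apart from the other LT-HSC libraries. Over the common regions their ranks, as normal scores, correlated with each other (Pearson r = 0.84) but only at 0.54 to 0.63 with the other LT-HSC libraries, whose pairs gave 0.77 to 0.87. MPP pairs gave 0.96 to 0.98, and LT-HSC with MPP pairs 0.40 to 0.77. The highest of the latter were those of LT-HSC WT 3 (0.735 to 0.774). This was near its value with LT-HSC KO 4 (0.772) and below that with LT-HSC WT 2 (0.861). These correlations are across regions within pairs of libraries, and regions are not independent replicates. The targeted genes do not check the genotype labels, since the deleted segments are not given: of the 21 regions at Rxra the LT-HSC KO libraries held 0, 3 and 14, the LT-HSC WT libraries 8 and 3, and the MPP libraries 13 to 16, and 1 of 4 regions at Rxrb was held by all 9. Gene-end peaks at 6 LT-HSC marker genes were present at 0 to 5 genes in LT-HSC libraries and 5 to 6 in MPP libraries. MPP markers (2 genes) had end peaks at 1 to 2 and at 2 genes. Stem and progenitor markers (4) had them at 2 to 3 and at 3, as did erythroid markers (3). Markers read as presence thus did not separate the sorted populations. In the rank test given below, the 2 common regions at MPP markers were both higher in MPPs (background 14.2%). Of the 2 at LT-HSC markers, 1 was higher in LT-HSCs (background 14.6%) and 0 in MPPs. The 4 at stem and progenitor markers were called in neither direction. T cell markers (4 genes) had end peaks at 0 to 2 genes in LT-HSC and 3 to 4 in MPP libraries, B cell markers (4) at 0 to 1 and at 2, mature myeloid markers (4) at 0 to 2 and at 3, and non-blood markers (4) at 0 to 2 and 1 to 2. The part of other cell types and of list length in the results below was not tested.

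Most oxidative phosphorylation genes had open chromatin in every library, in both cell types and both genotypes. A region held by all 9 libraries was present at 65 of the 80 genes (81.2%), against 47.1% of all protein-coding genes. By complex this held for 32 of 38 genes of complex I (including all 7 core subunits that carry out electron transfer, and 25 of 31 accessory subunits), 7 of 8 of complex III, 11 of 17 of complex IV and 15 of 17 of complex V. Among 114 regions present in at least 2 libraries, 69 (60.5%) were held by all 9, where the share over all 95786 such regions was 14.5%. Near gene ends the shares were 64 of 89 (71.9%) and 41.4%. Most genes were simple: 43 of the 80 had a single region, and only Atp5d, Ndufa8, Ndufb6 and Ndufv2 had 2 common regions.

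Most common regions lay near start sites: of 58 whose gene has a listed start site, 54 were within 1 kb of it. Of the 64 genes with a listed start site, 53 (82.8%) had a region within 1 kb of it in all 9 libraries, against 40.9% of 16457 genes. A further 8 had one in 7 or 8 libraries, and Cox7b2, Cox8b and Ndufb4b had none. Over 63 start site regions held by 7 or more libraries, the median peak summit lay 44 bp before the start site (quartiles −105.5 and −8.5 bp). The summit of one region varied over libraries by 64 bp in the median. The summits farthest upstream were those of the second region of Atp5d (−759 bp), which encodes the delta subunit of the stalk of ATP synthase, and of Ndufa11 (−710 bp), an accessory subunit of the complex I membrane arm. The width of the merged common regions had a median of 734 bp, against 740 bp for all common regions near gene ends and 657 bp for all common regions. Another gene's end lay within 1 kb of 32 of the 69 regions, so that a peak there cannot be given to 1 gene. Such pairs include Atp5j with Gabpa, which encodes the ETS factor named above, Ndufs6 with Mrpl36 and Ndufb5 with Mrpl47 (both genes of mitochondrial ribosomal proteins), and Ndufa7 with Rps28.

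**Figure D1:**
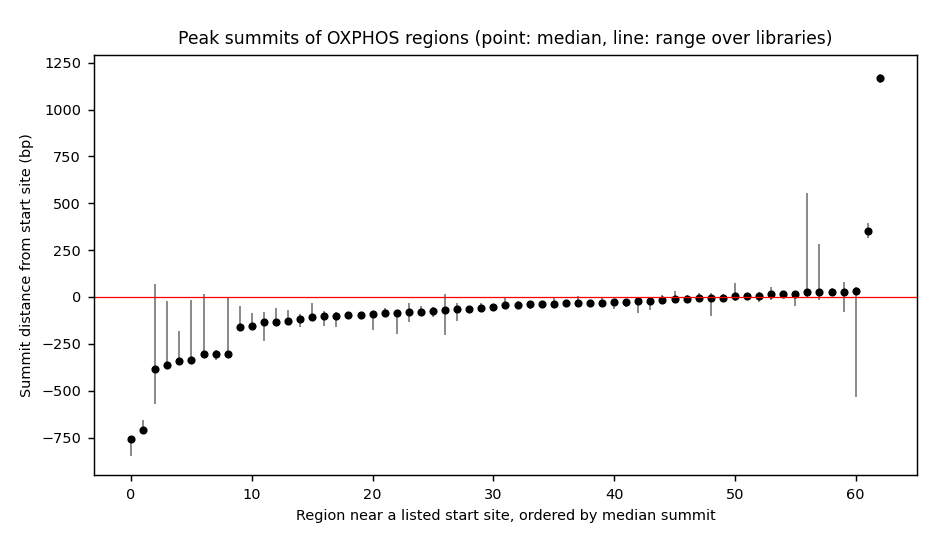
Distance in bp of peak summits from the RefSeq start site (y axis, negative values upstream) for 63 start site regions of oxidative phosphorylation genes held by 7 or more libraries, ordered by their median (x axis). Points are medians and lines the range over libraries, and most points lie just upstream of 0, around the median of −44 bp.

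The 15 genes without a region held by all 9 libraries fell into 2 kinds. For 9 of them (Atp5h, Atp5l, Cox4i2, Cox6c, Ndufa9, Ndufb8, Ndufb10, Ndufs4 and Uqcr11) a region at the gene end was held by all 4 MPP libraries, by LT-HSC KO 4 and WT 2, and by 1 or 2 of the other LT-HSC libraries. The libraries without a peak were thus LT-HSC KO 1, KO 2 or WT 3 in each case. LT-HSC KO 1 alone lacked the region of Atp5h and Atp5l (subunits d and g of the ATP synthase), Ndufa9 (an accessory subunit near the ubiquinone site) and Cox4i2. KO 1 and WT 3 lacked that of Ndufb8 and Cox6c, and KO 1 and KO 2 that of Uqcr11, a small subunit of complex III. Ndufb10 lacked a peak only in KO 2, and Ndufs4, an accessory subunit needed for complex I stability, only in WT 3. The other 6 genes had no such region. Cox8b, Cox8c, Ndufb4b and Ndufb4c had no region in any library, Cox6a2 had 1 peak in MPP KO 2 only, beside the integrin gene Itgad, and Cox7b2 had 2 regions inside the gene, held only by LT-HSC KO 2 and KO 4.

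Isoform genes were compared in the same way. Complex IV subunits often come as a common isoform and one restricted to tissues such as muscle, lung or testis. Every common isoform compared (Cox4i1, Cox6a1, Cox6b1, Cox7a2 and Cox8a, with Ndufa4) had a region held by all 9 libraries. Of 8 restricted isoforms, Cox6b2, Cox7a1 and Ndufa4l2 did, Cox4i2 had an end region in 8 libraries, and Cox6a2, Cox7b2, Cox8b and Cox8c had at most 2 libraries with a given region. The Cox6b2 region is shared with the end of Fam71e2. The common region of Ndufa4l2, a relative of Ndufa4 known as a hypoxia-induced gene, lay inside the gene (chr10:127512639-127513225), while its end regions, beside Stac3, were held by 6 and 7 libraries. The 3 genes Atp5g1, Atp5g2 and Atp5g3, which encode the same mature subunit c of the rotating ring, each had a start site region in all 9 libraries. Ndufa4 is grouped here by its symbol, although its protein is now placed in complex IV.

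**Figure D2:**
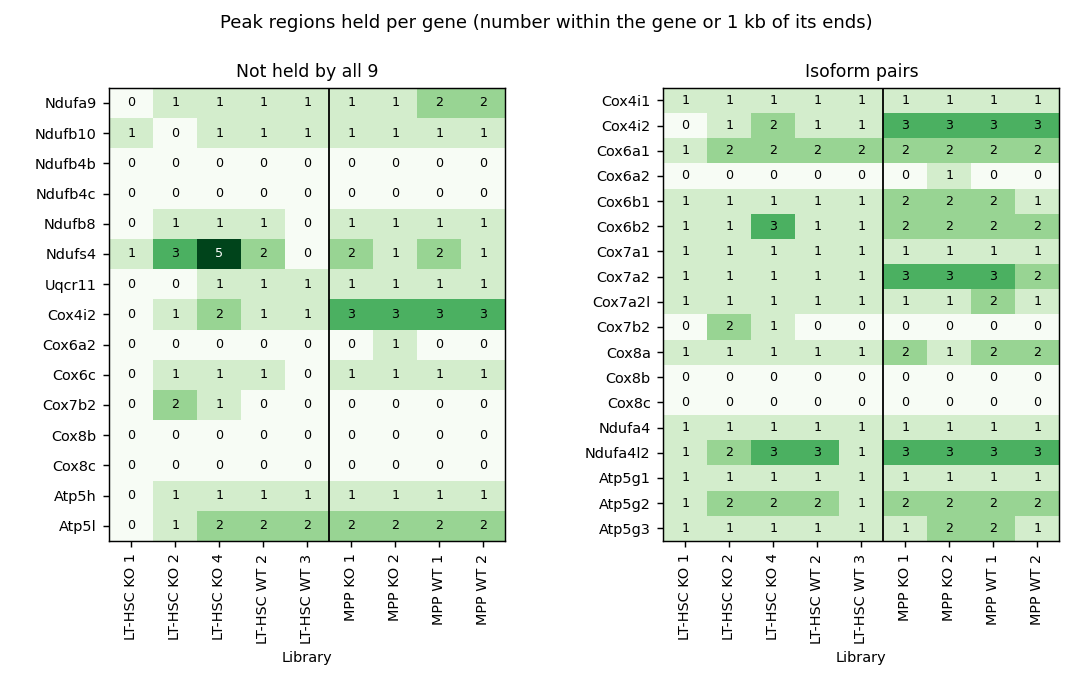
Number of peak regions held by each library (columns) within each gene or 1 kb of its ends (rows), for the 15 genes without a region held by all 9 libraries (left) and for isoform genes (right). A vertical line divides the 5 LT-HSC from the 4 MPP libraries, and 0 marks a gene without a peak, as for Cox8b and Cox8c throughout.

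Among regions that every library held, those of oxidative phosphorylation genes were of middling strength. Their median percentile over the 9 libraries had a median of 63.7 (quartiles 46.4 and 79.9, n = 69 regions). For the 64 of them near gene ends it was 61.5, against 62.0 for all 7101 common regions near gene ends and 37.6 for the 6807 other common regions. Medians by complex were 58.0 (complex I, 35 regions), 63.7 (III, 7 regions), 57.2 (IV, 11 regions) and 66.0 (V, 16 regions). These are descriptions over the members, with no test.

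The strongest region of complex I was at Ndufs8, a core subunit that carries iron-sulphur clusters and whose upstream letters are printed above. Its percentiles were 74.97, 91.5 and 99.1 in LT-HSC KO 1, 2 and 4, 99.0 and 98.6 in LT-HSC WT 2 and 3, 97.0 and 97.4 in MPP KO 1 and 2, and 96.8 and 96.2 in MPP WT 1 and 2. It was thus near the top everywhere except in LT-HSC KO 1, and somewhat lower in KO 2. Among gene-end regions, the order in complex III ran from Uqcrq (median 92.9), which helps bind ubiquinone, to Uqcr10 (46.4), a small subunit. In complex IV the order of gene-end regions ran from Cox8a (87.7), the common form of the smallest subunit, to Cox6b1 (33.8), which faces cytochrome c. The start site region of Cox7a2 stood higher, at 89.6. It lies inside the gene record, which extends past the listed start site, and so is not among the gene-end regions. The order in complex V ran from Atp5g1 (93.8) to Atp5mpl (28.2), a small ATP synthase-associated protein. The lowest common gene-end region of complex I was the second region of Ndufa8 (16.9), at the end opposite its start site, whose start site region was at 29.9. In the muscle and heart form Cox7a1 the percentile was 15.3, 7.21 and 57.2 in LT-HSC KO 1, 2 and 4, 37.2 and 24.8 in LT-HSC WT, and 59.7 to 69.4 in MPPs. That of the common form Cox7a2 was 74.7 to 97.2 over the same 9 libraries, above Cox7a1 in each. LT-HSC libraries spread more than MPP libraries, with a median SD of 11.9 percentile points over 5 libraries against 3.35 over 4, and over all common regions the values were 13.5 and 3.5.

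**Figure D3:**
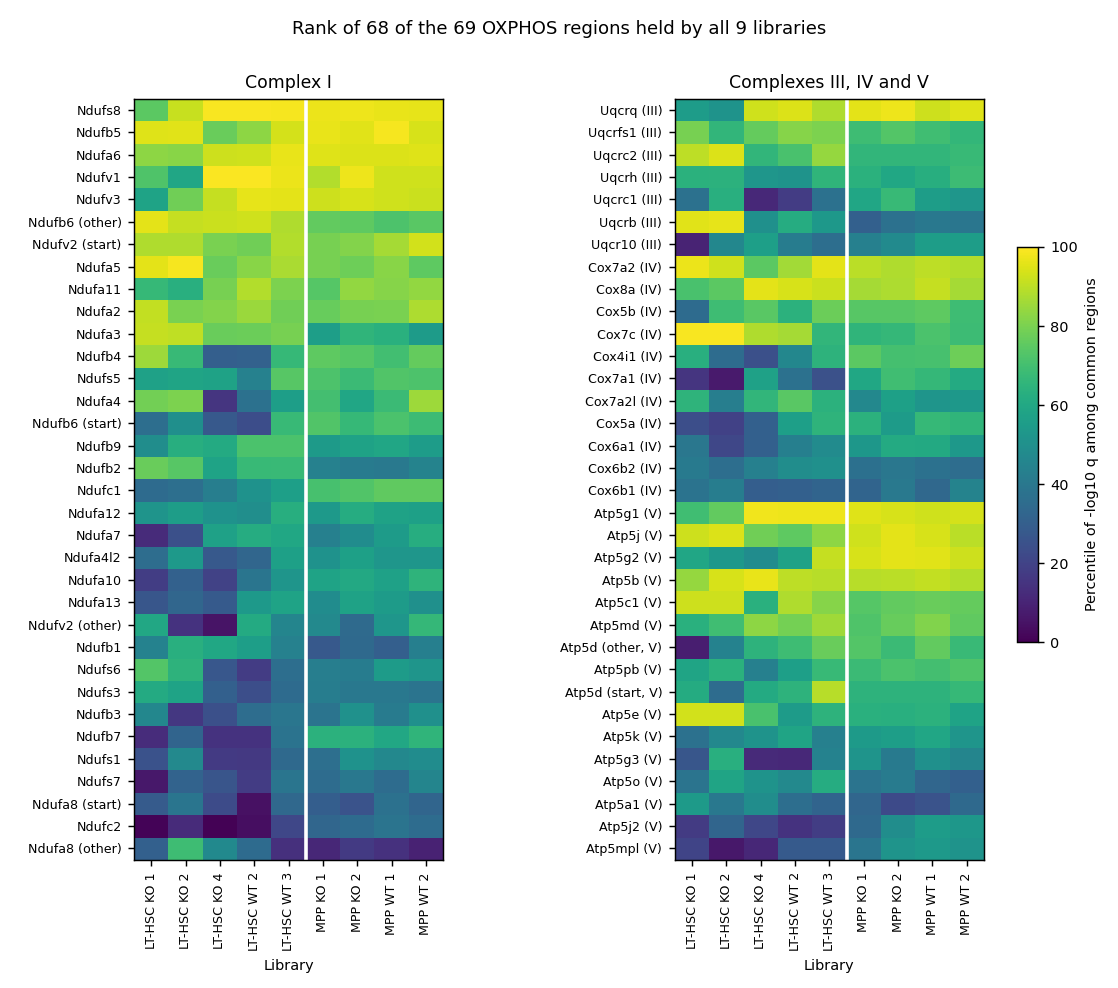
Percentile of 68 of the 69 common regions (rows, by complex and median; "start" and "other" mark the region nearest the start site and the other region of genes with 2) in each library (columns), coloured from 0 to 100 by −log10 q among the 13908 common regions. The 4 MPP columns resemble each other, and LT-HSC KO 1 and KO 2 differ from the other LT-HSC columns, for example at Cox7c, Uqcrb and Ndufv1.

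The first comparison asked how the cell types differ. In presence, 6 regions of these genes were held by all 4 MPP and no LT-HSC library (two-sided Fisher's exact test, p = 0.00794, Benjamini-Hochberg adjusted p = 0.0245 each). That is 30.0% of the 20 regions that could be tested, where the share over all 52020 tested regions was 31.9%. They made up 5.26% of the 114 regions present in at least 2 libraries, against 17.3% over all such regions. At the ends of these genes they were 2 of 88, against 6.97% over all such regions near gene ends. No region was held by all 5 LT-HSC and no MPP library (0 of 20 by Fisher's exact test at either unadjusted or adjusted p, background 0.442%). Of the 6, 4 lay inside a gene: Cox4i2 (chr2:152756531-152756862), Cox5a (chr9:57524437-57524817), Cox7a2 (chr9:79762478-79762809) and Ndufa7 (chr17:33826932-33827175). That of Ndufs3 (chr2:90903461-90903827), a core subunit gene of complex I that also had a region held by all 9 libraries, lay at a gene end shared with Kbtbd4. In lists cut to equal length 0 of 8 tested regions passed this test after adjustment, and without LT-HSC KO 4 10 of 10 did. These are counts of regions that passed, and the shares over all regions were not taken for either.

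Of the regions held by LT-HSC libraries and no MPP library, 9 in all, none passed a test. The one with most libraries lay inside Ndufs4 (chr13:114295705-114296029), held by LT-HSC KO 2, KO 4 and WT 2, more than 92 kb from the start site. A further 3 single-library peaks of LT-HSC KO 2 or KO 4 lay in the same gene, and the rest were in Cox7b2, Cox5a, Cox6b2 and Ndufa11.

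In rank, 14 of the 69 common regions differed between LT-HSCs and MPPs (limma on normal scores of rank, with genotype as a term, Benjamini-Hochberg adjusted over all 13908). A difference of 1 is 1 SD over the common regions. Higher in MPPs were 10 regions (14.5%, where the share over all common regions was 14.2%), at Ndufb7, Ndufc1, Atp5g2, Atp5mpl, Ndufc2, Atp5j2, Ndufa10, Cox7a1, the start site of Ndufb6, and Cox4i1. Higher in LT-HSCs were 4 (5.80%, background 14.6%), at Ndufb2, Ndufa3 and the ends opposite the start site of Ndufb6 and Ndufa8. The median difference over the 69 regions was −0.22, against −0.17 over all 7101 common regions near gene ends and −0.05 over all common regions. The scale of comparison mattered for the split. Ranked among the 7101 common regions near gene ends only, 10 of 64 regions were higher in LT-HSCs (background 12.5%) and 5 in MPPs (background 12.6%), and the median difference was 0.00, against −0.01 over all of these. All 4 LT-HSC calls were kept on that scale, and were joined by Atp5a1, Atp5o, Cox7c, Ndufb1, Uqcrb and Uqcrc2. Of the 10 MPP calls it kept Ndufb7, Ndufc1, Atp5g2, Atp5mpl and Ndufc2. Ranked by fold enrichment among all common regions, 10 of the 14 calls still passed. The LT-HSC calls at Ndufb2 (0.405, limma, adjusted p = 0.14), Ndufa3 (0.29, adjusted p = 0.394) and Ndufa8 (0.269, adjusted p = 0.465) did not. The LT-HSC call at Ndufb6 did (1.43, limma, adjusted p = 0.000754), and of the MPP calls only Cox4i1 did not (−0.473, adjusted p = 0.168).

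The clearest MPP-higher region was at the start site of Ndufb7, an accessory subunit on the intermembrane-space side of complex I, whose upstream window holds the ETS match. Its percentiles were 12.5, 32.1 and 14.7 in LT-HSC KO 1, 2 and 4, 14.7 and 38.0 in LT-HSC WT 2 and 3, 64.2 and 64.1 in MPP KO, and 59.9 and 65.3 in MPP WT. All 4 MPP libraries lay above all 5 LT-HSC libraries, with 63.4 ± 2.4 (SD, n = 4) against 22.4 ± 11.8 (SD, n = 5). The difference was −1.14 ± 0.22 (SE, limma, adjusted p = 0.00384). Atp5g2, the subunit c gene with the NRF1 match at −42, stood at 59.3, 53.4 and 48.5 in LT-HSC KO, 57.7 and 91.2 in LT-HSC WT, 93.9 and 95.8 in MPP KO, and 95.6 and 92.5 in MPP WT. Here LT-HSC WT 3 came close to the MPPs without reaching them, and the difference was −1.20 ± 0.26 (SE, limma, adjusted p = 0.00675). The other subunit c genes did not pass, Atp5g1 with −0.06 (limma, adjusted p = 0.903) and Atp5g3 with −0.50 (limma, adjusted p = 0.254).

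Ndufc1 and Ndufc2, accessory subunits of the membrane arm, were both higher in MPPs. Ndufc1 had 34.9, 36.4 and 42.8 in LT-HSC KO, 51.1 and 56.5 in LT-HSC WT, and 71.0 to 75.7 in MPPs (difference −0.76 ± 0.16, SE, limma, adjusted p = 0.00646). Ndufc2 was among the weakest common regions of LT-HSCs, at 1.17, 12.2 and 0.67 in KO and 3.61 and 21.1 in WT, and stood at 32.9 to 38.5 in MPPs (−1.29 ± 0.31, SE, limma, adjusted p = 0.011). Neither overlapped between cell types. Atp5mpl lay between 6.31 and 28.2 in LT-HSCs and between 38.8 and 54.05 in MPPs (−0.88, limma, adjusted p = 0.00878). Atp5j2, which encodes subunit f of the membrane part of the ATP synthase, lay between 14.8 and 32.5 in LT-HSCs and between 34.3 and 55.1 in MPPs (−0.77, limma, adjusted p = 0.015). Ndufa10, Cox7a1 and Cox4i1, the common form of subunit IV, also stood apart without overlap, with differences of −0.72, −1.01 and −0.70. For the Ndufb6 start site the groups overlapped, since LT-HSC WT 3 (67.5) exceeded MPP KO 2 (67.0).

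Ndufb6, an accessory subunit of complex I, had 1 region in each direction. While its start site region was higher in MPPs (−0.76 ± 0.25, SE, limma, adjusted p = 0.0407), the region at its opposite end (chr4:40269465-40270085), 9336 bp from the start site and beside Topors and Smim27, was higher in LT-HSCs (0.76 ± 0.17, SE, limma, adjusted p = 0.00747). That region stood at 95.8, 91.4 and 92.1 in LT-HSC KO, 92.6 and 88.2 in LT-HSC WT, and 72.1 to 75.8 in MPPs, with no overlap. The region lies at the ends of those other genes too and cannot be given to 1 of them. The Ndufb2 start site region, which has the AGGTCA and CCAAT letters shown above, stood at 77.2, 74.2 and 58.0 in LT-HSC KO, 67.4 and 67.9 in LT-HSC WT, and 40.5 to 44.8 in MPPs (0.68 ± 0.17, SE, limma, adjusted p = 0.0152). Ndufa3, an accessory subunit whose region is shared with the end of Oscar, an osteoclast receptor gene, stood at 77.2 to 91.1 in LT-HSCs and 55.0 to 65.4 in MPPs (0.72, limma, adjusted p = 0.018). The second Ndufa8 region overlapped between groups, at 13.9 to 69.1 and 9.42 to 16.9 (0.79, limma, adjusted p = 0.0419).

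**Figure D4:**
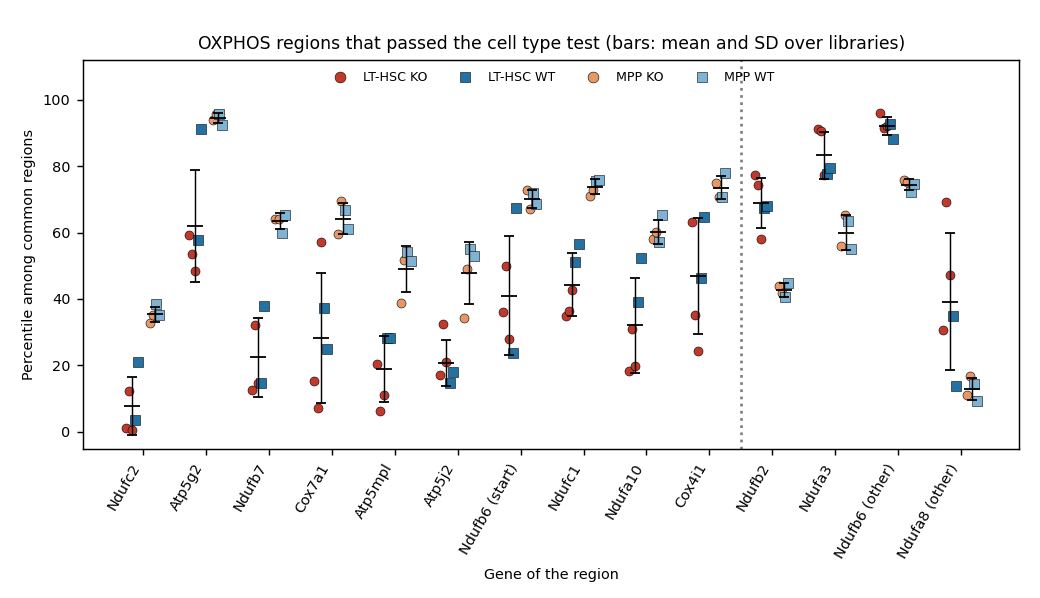
Percentile among common regions (y axis) in each library for the 14 regions that passed the cell type test, with the 10 higher in MPPs left of the dotted line and the 4 higher in LT-HSCs right of it. Circles are KO and squares WT libraries, and bars give the mean and SD over the 5 LT-HSC or 4 MPP libraries; the 2 groups overlap only at the Ndufb6 start and the other Ndufa8 region.

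Without LT-HSC KO 1 and KO 2, all 14 regions still passed, and 32 of 79 common regions did, 12 higher in LT-HSCs (background 22.6%) and 20 in MPPs (background 22.1%). Leaving out MPP KO 1, KO 2, WT 1 or WT 2 lowered the 14 calls to 7, 5, 9 and 9, where the shares over all common regions were 15.9%, 15.7%, 21.6% and 21.2%. Without LT-HSC KO 4, 8 regions were higher in LT-HSCs (background 16.5%) and 9 in MPPs (background 16.5%). The regions of Atp5g2, Ndufb7, Ndufc1, Ndufc2 and the Ndufb6 end opposite its start passed without any 1 library. An exact permutation test per region called 0 of 69. In it, complete separation of 5 from 4 libraries was not enough to pass, with an adjusted p of 0.0637 at Ndufb7 and 0.0777 at Cox4i1. At unadjusted p under 0.05, limma gave 22 of 69 (background 41.8%).

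The second comparison asked whether loss of the receptors changed these regions. Presence by genotype could not be tested for these genes. Whether the stratified exact test can reach its threshold depends on how many LT-HSC and how many MPP libraries hold a region. None of their regions had such a combination. Over all other regions, 0 of 1565 passed that exact test (background 0.0% in either direction), and 39 (2.49%) did so before adjustment. In rank, 0 of 69 regions passed between KO and WT over both cell types, within MPPs or within LT-HSCs, or in the difference between the cell types (limma with equal weights, background 0.0% in each), and the weighted fit given below made calls within LT-HSCs. At unadjusted p under 0.05 limma gave 3, 0, 11 and 2 of the 69, against 9.47%, 0.539%, 24.9% and 8.14% of all common regions. The smallest adjusted p over the 69 was 0.507, 1.0, 0.0883 and 0.592. A p that misses the threshold does not show that the genotypes are alike, with 2 libraries against 2 in MPPs and 3 against 2 in LT-HSCs. The spread was also pooled over the 4 groups, although LT-HSC libraries varied more than MPP libraries. In the weighted fit 0 of the 69 passed within MPPs, where 2.65% of all common regions did. Over both cell types 0 passed in that fit, against 2.55%. The median KO minus WT difference over the 69 regions was −0.03 in MPPs (−0.05 over common regions near gene ends) and −0.15 in LT-HSCs (−0.18).

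Within MPPs the libraries were close. KO and WT differed by −0.49 to 0.31 over the 69 regions, and the KO libraries lay below both WT libraries without overlap in 17 (background 23.5%) and above them in 7 (background 23.2%). Within LT-HSCs they lay below in 16 (background 15.5%) and above in 3 (background 16.3%). In both cell types at once KO lay below WT in 4 regions (background 4.37%) and above in 0 (background 4.70%). Among these were Cox5a, Ndufa7 and Ndufc1, and no test separates them from the rest.

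Cox5a, a subunit of complex IV on the matrix side, had the smallest p within LT-HSCs. Its region (chr9:57520950-57521607) stood at 23.9, 19.2 and 30.6 in LT-HSC KO and 56.6 and 65.2 in LT-HSC WT, a difference of −0.97 ± 0.23 (SE, limma, adjusted p = 0.0883). In MPPs it stood at 64.2 and 54.8 in KO and 66.9 and 65.3 in WT, a difference of −0.17. Of the 9 libraries the 3 LT-HSC KO libraries were thus the lowest, without passing the test. Ndufa7, an accessory subunit whose region is shared with Rps28, had 12.4, 24.3 and 57.0 in LT-HSC KO and 61.8 and 59.4 in LT-HSC WT, with KO 4 near WT. The largest positive difference within LT-HSCs was that of Cox7c, a small subunit of complex IV, at 99.2, 99.1 and 88.3 in KO and 86.5 and 65.8 in WT (1.22 ± 0.38, SE, limma, adjusted p = 0.114).

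**Figure D5:**
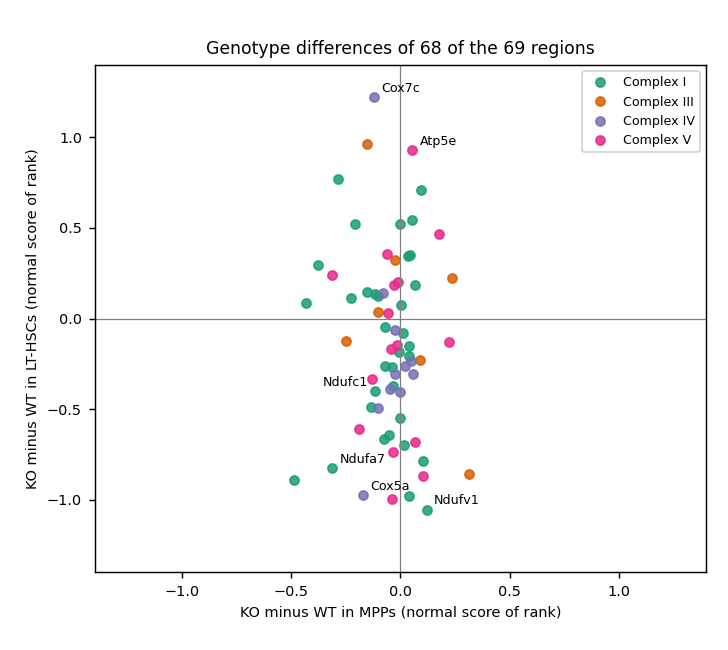
KO minus WT difference in normal score of rank in MPPs (x axis) and in LT-HSCs (y axis) for 68 of the 69 common regions, coloured by complex, with both axes on the same scale. The MPP differences lie between −0.49 and 0.31 and the LT-HSC differences between −1.06 and 1.22, and none passed the test.

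The LT-HSC genotype result depended on how the libraries were weighed. With all 9 libraries but weights estimated per library (limma array weights), 19 of the 69 regions differed within LT-HSCs, 7 higher in KO (background 16.7%) and 12 lower (background 16.5%). The genotype difference then differed between cell types in 13, being higher in LT-HSCs in 5 (background 14.9%) and lower in 8 (background 14.3%). In rank LT-HSC KO 4 resembled the WT libraries, while KO 1 and KO 2 stood apart. Without KO 4, 26 of the 69 regions differed between KO and WT within LT-HSCs (limma, adjusted over all common regions), 10 higher in KO (background 22.1%) and 16 lower (background 23.3%). Those higher were led by Uqcrb (1.54), a ubiquinone-binding subunit of complex III, Atp5e (1.24), the epsilon subunit of the ATP synthase stalk, Cox7c (1.62), Ndufs6, Ndufs3, Ndufa5, Ndufa4 and Atp5j. Those lower included Atp5g1 (−1.35), Uqcrq (−1.32), Ndufv1 (−1.74), which binds NADH, Ndufa7, Ndufv3, Cox5a and Ndufs8. At Uqcrb the percentiles were 95.4 and 96.2 in KO 1 and KO 2, 50.3 in KO 4, and 62.0 and 53.2 in WT. At Ndufv1 they were 72.3 and 59.0, 99.3, and 99.2 and 97.0. The genotype difference then also differed between cell types in 12 regions, being higher in LT-HSCs in 5 (background 12.9%) and lower in 7 (background 11.7%). With KO 4 as the only LT-HSC KO library, that is without KO 1 and KO 2, 1 of 79 regions passed, the end of Ndufv2 opposite its start site (chr17:66076554-66077841, beside Ankrd12; −1.62, adjusted p = 0.0476, background 1.11% lower and 0.117% higher). The spread of that single library is then assumed to equal that of the other groups. Genotype and what sets KO 1 and KO 2 apart from KO 4 cannot be told apart in these libraries.

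Genes that work with the subunits were taken as a fixed list. The 50 other pathway genes were those of complex II, Cycs, Cyct and Cyc1, and the assembly factors of complexes I, III, IV and V. Of these, 41 had a gene-end region held by all 9 libraries. The 9 without were Cyct, the testis form of cytochrome c, and the assembly factor genes Ndufaf6, Ttc19, Uqcc1, Uqcc2, Coa3, Atpaf1, Atpaf2 and Tmem70. All 4 complex II genes and 18 of 19 complex IV assembly genes had one. Of the 46 common regions of this list, 2 ranked higher in LT-HSCs and 3 in MPPs (backgrounds 14.6% and 14.2%), and 9 of 90 regions were held only by MPPs (background 17.3%). Promoter GC content was set beside rank. Over 5887 common start site regions of all genes, Spearman's rho between GC and percentile was −0.115 to 0.119 in LT-HSC and 0.183 to 0.256 in MPP libraries. For 52 regions of oxidative phosphorylation genes it was −0.025 to 0.150 and 0.170 to 0.210. The LT-HSC minus MPP difference gave −0.337 over all and −0.099 over the 52. These correlations are across regions of the same libraries, and the part of GC content in the cell type differences was not tested.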

How the data were processed

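The authors deposited 1 ATAC-seq peak list per library. Per the submitters' processing notes, which give no roles, the tools included cutadapt 1.7, FastQC, Bowtie2, SAMtools 0.1.18, MACS2 2.1.1, DiffBind 2.6.6, edgeR 3.20.9 and HOMER 4.10.3, with build mm10. The files carry no header. By the standard narrowPeak column order, the authors gave each deposited peak a score for display, its fold enrichment (a ratio), its −log10 p-value and −log10 q-value, and a summit offset. Read filters and any Tn5 shift: not given in the sources used here. Depth is unknown.

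Overlapping peaks (1 bp or more) of the 9 lists were joined into regions with pandas 2.3.3 and numpy 2.4.6, and regions held by 2 or more libraries were analysed. Genes were matched by coordinates to RefSeq genes of GRCm38.p6, whose chromosomes are those of mm10, and start sites came from RefSeq promoter windows. Chromosome X was not used here. Presence was tested by Fisher's exact test for cell type (regions held by 3 to 6 libraries) and a stratified exact test of 60 labellings for genotype. Ranks of the 13908 common regions were turned into normal scores and tested with limma 3.58.1 (R 4.3.3) as cell type plus genotype, and as 4 groups for contrasts within a cell type. Benjamini-Hochberg adjusted p of 0.05 over all regions was the threshold, and both tests were tested on simulated data, in which the smallest rank differences planted were not recovered, nor, within MPPs, the middle ones. The presence tests made no call after adjustment where few of the simulated regions differed.

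The genes, pathway lists, motifs and markers were chosen with earlier results of these data known. Named were all members with a region that passed (up to 8 per direction, smallest p first), the highest and lowest gene-end region per complex, every member without a region in all 9 libraries, and isoform pairs. The genes with KO below WT in both cell types, Cox7c and the upstream windows shown were singled out after their values were seen. Alternatives covered the merging overlap, a stricter q, equal list lengths, the gene window, rank by fold enrichment or among gene ends, library weights, a replicate block, an exact test and each library left out. That without LT-HSC KO 1 and KO 2 was added after seeing the data. The values of 1 gene are not reported here individually, and counts over the list include it.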

Additional observations from a re-analysis of the deposited data

How the results depend on the processing

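The count of regions held by all 9 libraries (69) stayed within 1.5 times of itself under the alternatives run for it, at 69 to 76 without 1 library and 79 without LT-HSC KO 1 and KO 2. Regions that passed the Fisher test as held only by MPPs were 6 of 20 tested. They numbered 0 of 8 in lists of equal length and 6 to 10 without 1 library, where the shares over all regions were not taken. Within 5 kb of the genes they were 12 of 56, and at gene ends 2 of 8. Those sets come from the main tests, in which 31.9% of all 52020 tested regions passed. Regions ranked differently between cell types numbered 14, of which 4 were higher in LT-HSCs and 10 in MPPs. By fold enrichment they numbered 22, with 6 higher in LT-HSCs (background 16.0%) and 16 in MPPs (background 15.0%). With array weights they numbered 27, with 8 higher in LT-HSCs (background 21.1%) and 19 in MPPs (background 23.4%). The count was 32 without LT-HSC KO 1 and KO 2 (12 and 20), and 0 by the exact permutation test (0 and 0). Among gene-end regions the split was 10 and 5. Without 1 library the count was 5 to 18, with 1 to 8 higher in LT-HSCs and 4 to 12 in MPPs. Within LT-HSCs, KO against WT gave 19 regions with array weights (33.2% of all common regions passed), 1 without LT-HSC KO 1 and KO 2, and 0 to 26 without 1 library. The difference between cell types gave 13 with array weights (29.2% of all) and 0 to 12 without 1 library. The causes were not tested.

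The labels do not say what the replicate numbers stand for. Deviations of same-numbered libraries from their group means correlated at −0.068 to 0.035. In groups of 2 libraries the deviations mirror each other, so these values cannot settle whether the numbers pair the libraries. With the replicate block, 7 regions ranked higher in LT-HSCs (15.2% of all common regions did) and 9 in MPPs (14.8% did). Replicate numbers 3 and 4 occur only in LT-HSC WT 3 and LT-HSC KO 4, so the block sets both libraries aside. Regions then also passed between KO and WT in LT-HSCs and in the difference between cell types. Within LT-HSCs these calls compare KO 1 and KO 2 with WT 2 alone, so their counts are not given. A block was not run for presence. Exact tests within a cell type were not run, since their smallest p is 0.333 in MPPs and 0.1 in LT-HSCs. None of the 14 regions called between cell types changed sign under the alternatives run for them. Unknown depth and unequal list lengths limit every statement on a missing peak.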
